A study of Mus musculus with 4 samples.

Results

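The testis-specific serine kinases are a family of 6 mouse genes, Tssk1 to Tssk6. They were taken by gene symbol from the 50763 genes of the count table, and all 6 had a row. Pachytene spermatocytes, the long mid-prophase stage of male meiosis, had been purified from testis, and their polyadenylated RNA gave 4 libraries, 2 from Hsf5 knockdown mice and 2 from wild-type (WT) mice. Hsf5 encodes a heat shock factor made in male germ cells. The labels call the replicates biological but give neither the age or strain of the animals, nor how the knockdown was made, nor which animals were used. The p-values therefore measure the spread between these libraries.

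TSSK proteins are small kinases of the calcium/calmodulin-dependent kinase group, made almost only in the male germ line. Their transcripts are known mainly from spermatids, the haploid cells that follow meiosis, where the kinases act in shaping the sperm head and tail. In mice, loss of Tssk1 and Tssk2 together, of Tssk3, of Tssk4 or of Tssk6 impairs male fertility. The kinases depend on HSP90 chaperones for their stability, and their best known substrate is TSKS, which TSSK1 and TSSK2 phosphorylate.

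The libraries held 42479164 and 33947608 counts in the knockdown and 39331933 and 33287428 counts in WT. The targeted gene, Hsf5, stood at 287 and 238 CPM in the knockdown libraries and at 586 and 449 CPM in the WT libraries (CPM, counts scaled to library size with the trimmed mean of M values, TMM). Its log2 fold change was -0.98 (SE 0.31; edgeR quasi-likelihood test, adjusted p = 0.0217), a call lost without WT replicate 1 or WT replicate 2 and with library totals as the only scaling. On the scale of synaptonemal complex and cohesin genes it was -1.76 (edgeR, adjusted p = 0.000824). With TMM, 11 of the 23 tested genes of that scale were higher and 2 lower, with a median log2 fold change of 0.87. Scaling on them therefore lowers the log2 fold changes of genes in general. Germ cell and somatic markers also differed between the groups, and in these bulk samples fewer cells of a type and less RNA per cell cannot be told apart. Among all genes tested, 33.5% were lower and 27.4% higher, the shares beside which the marker counts below stand. Of 18 pachytene markers 11 were lower, 3 higher and 4 not past the test (median log2 fold change -1.54). Their summed level was 3373 to 4353 CPM in the knockdown against 15088 to 15123 CPM in WT. The 3 higher were Sycp1, Hormad1 and Hormad2, with log2 fold changes of 1.27, 1.24 and 1.64. The deepest falls were those of Pgk2, Adam3 and Ovol2, at -7.50, -6.91 and -6.69. The synaptonemal complex gene Sycp3, named after its values were seen, was present in every library. It was at 311 and 157 CPM in the knockdown against 151 and 105 CPM in WT, a difference that did not pass (edgeR, adjusted p = 0.0722). Spermatogonial markers summed to 1376 to 1693 CPM in the knockdown against 966 to 1074 CPM in WT, with 11 of 15 higher, none lower and 4 not past the test and a median log2 fold change of 3.58. Ddx4, which did not pass, gave most of the WT sum, with 752 and 522 CPM in the knockdown against 888 and 788 CPM in WT. All 15 Sertoli cell markers were higher, summing to 4129 to 4862 CPM in the knockdown against 193 to 473 CPM in WT, and so were 13 of 15 markers of Leydig, peritubular and blood cells. The part of these cell types in the TSSK results was not tested.

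All 6 TSSK transcripts were far lower in the knockdown than in WT. Each of the 6 fell at an adjusted p below 0.05, where 33.5% of the 23594 genes tested fell and 27.4% rose (7902 and 6467 genes). On the scale of synaptonemal complex and cohesin genes, 10282 genes fell and 3503 rose, and with library totals 6680 fell and 8121 rose; the 6 TSSK genes fell on both scales. For all 6 the higher knockdown value lay below the lower WT value, as it did for 43.7% of the genes tested, with 39% not overlapping the other way round. The log2 fold changes ran from -8.52 to -4.31 with a median of -5.85, against a median of -0.12 over all genes tested. A still lower log2 fold change was found in 4.26% of the genes tested for Tssk2 and in up to 13.8% for Tssk6. For each of the 6 genes the WT counts were enough to pass the filter on low counts, so passing that filter is no support for a change. Tssk2 (8 and 14 counts in the knockdown) and Tssk4 (6 and 24) would not have passed on their knockdown counts. For these 2 genes the filter favours a fall.

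**Figure D1:**
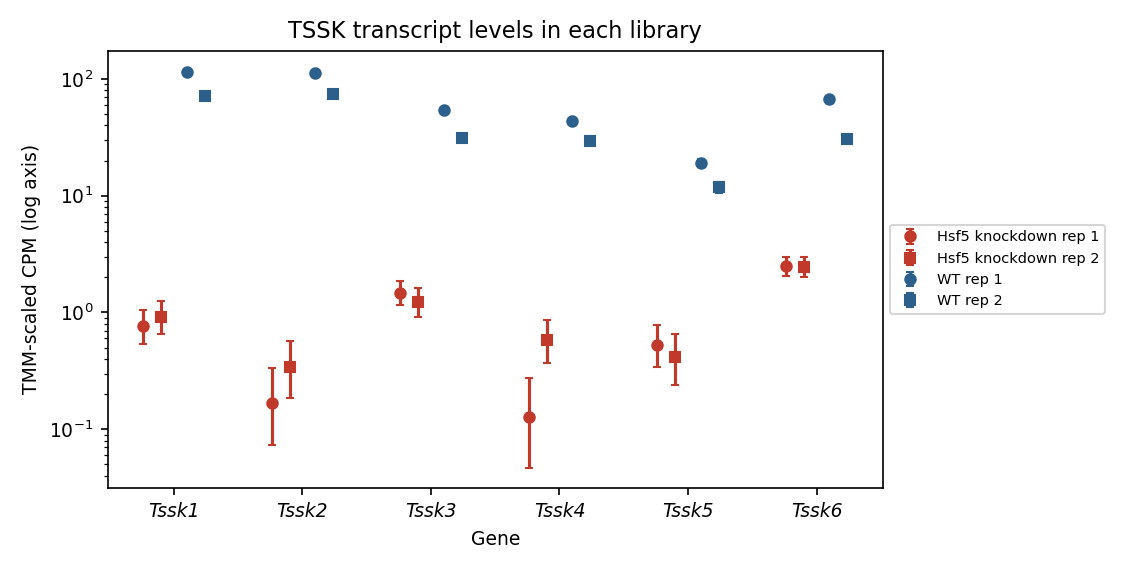
TMM-scaled CPM (log axis) of each TSSK gene in each of the 4 libraries, with red for Hsf5 knockdown and blue for WT. Bars are exact 95% Poisson intervals on the counts and cover counting error only. The knockdown points lie between 0.127 and 2.48 CPM and the WT points between 11.8 and 114 CPM.

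Tssk1 and Tssk2 are neighbouring genes on chromosome 16, next to each other among the protein-coding genes of RefSeq, and their products act together on TSKS. Tssk1 was at 0.762 and 0.921 CPM in the knockdown libraries (36 and 38 counts), against 114 and 71.7 CPM in the WT libraries (3826 and 2062 counts). Its log2 fold change was -6.78 (SE 0.44; edgeR, adjusted p = 7.87e-06). Tssk2 was at 0.169 and 0.339 CPM in the knockdown (8 and 14 counts) and at 112 and 74.8 CPM in WT (3764 and 2153 counts). It fell the most of the 6, with a log2 fold change of -8.52 (SE 0.52; edgeR, adjusted p = 6.24e-06). The knockdown level was 0.906% of the WT mean for Tssk1 and 0.272% for Tssk2, although the genes had nearly equal counts in WT.

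That difference within the pair can be read without any scaling of the libraries. Tssk1 made up 81.8% and 73.1% of the Tssk1 plus Tssk2 counts in the knockdown libraries (95% Clopper-Pearson intervals 67.3% to 91.8% and 59.0% to 84.4%), and 50.4% and 48.9% in the WT libraries (49.3% to 51.5% and 47.4% to 50.4%). The intervals of the 2 groups do not meet, though they cover counting error only. An exact two-sided permutation test over the 4 libraries gave p = 0.333, the smallest p that its 6 arrangements allow.

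The pair is also the most alike in sequence, which bears on how reads could be shared. Over their coding sequences Tssk1 and Tssk2 were identical at 81.9% of 1045 aligned bases, whereas the other 14 pairs of the family lay between 61.4% and 67.0%. In the GENCODE M21 transcripts 125 stretches of 50 bases occur in both genes, 9.34% of those of Tssk2 and 3.42% of those of Tssk1. Read in the same orientation, the other 4 members share none with any other gene. The opposite orientation was not searched. The longest shared coding run spans bases 371 to 483 from the first coding base of both genes. It is printed because a read wholly inside it matches both genes alike.
Tssk1 and Tssk2 coding run: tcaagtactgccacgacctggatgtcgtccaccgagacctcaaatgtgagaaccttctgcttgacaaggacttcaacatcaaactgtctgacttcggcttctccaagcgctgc
The handling of reads that match more than 1 place is not stated in the labels, so the split between Tssk1 and Tssk2 is less certain than their sum.

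The 100 bases before the RefSeq start of each of the pair are shown next because these stretches are the most alike among members with a promoter in the table. They come from RefSeq on GRCm38.p6, an older build than the mm39 used for the counts. Both lie on the plus strand, at chr16:17894103-17894202 for Tssk1 and chr16:17898537-17898636 for Tssk2. Capitals mark their longest identical run.
Tssk1: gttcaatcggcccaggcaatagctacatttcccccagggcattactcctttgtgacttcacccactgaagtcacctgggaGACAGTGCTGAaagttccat
Tssk2: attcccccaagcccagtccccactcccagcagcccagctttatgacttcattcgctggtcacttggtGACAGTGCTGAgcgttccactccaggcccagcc
Aligned end to end, 61 bases were identical in this pair, against 43 to 55 in the other 9 pairs of members with a promoter in the table. The shared run is 11 bases long and begins 20 bases before the start in Tssk1 and 33 bases before it in Tssk2. The longest run shared by any other pair was 7 bases. All 6 TSSK genes fell, and a part of these stretches in the fall was not tested.

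Tssk3, a kinase whose activity rises when PDPK1 phosphorylates it in vitro, was at 1.48 and 1.24 CPM in the knockdown libraries and at 53.8 and 31.2 CPM in the WT libraries. The log2 fold change was -4.96 (SE 0.47; edgeR, adjusted p = 4.5e-05). Tssk3 overlaps Fam229a in RefSeq, and Fam229a had 0.508 and 0.461 CPM in the knockdown against 36.7 and 21.7 CPM in WT. Overlaps named here are of whole gene spans, and exons were not compared. Whether strand was used in counting is unknown here, so reads of these genes may not be fully told apart.

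Tssk4, which phosphorylates the sperm tail protein ODF2 in mice, was the most variable member in the knockdown, at 0.127 and 0.582 CPM (6 and 24 counts). The exact Poisson intervals of those values, 0.0466 to 0.277 and 0.373 to 0.866 CPM, do not overlap. In WT Tssk4 had 43.3 and 29.6 CPM, and the log2 fold change was -6.69 (SE 0.70; edgeR, adjusted p = 7.95e-05). Without knockdown replicate 2 it was -8.12 and without knockdown replicate 1 it was -5.88, and both passed. Tssk4 overlaps Tm9sf1 in RefSeq, a gene that rose (log2 fold change 1.42, SE 0.34; edgeR, adjusted p = 0.00522).

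Tssk5 stood at 0.529 and 0.412 CPM in the knockdown against 18.9 and 11.8 CPM in WT. Its log2 fold change was -5.01 (SE 0.56; edgeR, adjusted p = 0.000112). Tssk6, whose product is needed in mice for DNA compaction in spermatids and for sperm-egg fusion, kept the largest share of its WT level, at 2.48 and 2.47 CPM in the knockdown (117 and 102 counts) and 67.5 and 30.5 CPM in WT. It had the smallest fall, -4.31 on the log2 scale (SE 0.49; edgeR, adjusted p = 0.00012), and the knockdown mean was 5.05% of the WT mean. Tssk6 overlaps Ndufa13 in RefSeq, a respiratory chain gene that did not pass the test (80.2 and 36.7 CPM in knockdown libraries against 58.0 and 56.4 in WT). It had 3785 and 1515 counts in the knockdown libraries, far above the 117 and 102 of Tssk6, so with the strand setting unknown the low knockdown counts of Tssk6 may include reads of Ndufa13. The same limit holds for Tssk4 and Tm9sf1, which had 2247 and 2032 counts in the knockdown.

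The split of the family's assigned counts differed between the groups by more than counting error for 4 of the 6 genes. Tssk6 took 44.7% and 41.5% of the summed TSSK counts in the knockdown libraries and 16.5% and 12.2% in the WT libraries. Tssk3 took 26.7% and 20.7% in the knockdown and 13.1% and 12.5% in WT. Tssk2 moved the other way, with 3.05% and 5.69% in the knockdown and 27.4% and 29.99% in WT. Tssk1 took 13.7% and 15.4% in the knockdown and 27.8% and 28.7% in WT. For these 4 genes the 95% Clopper-Pearson intervals of the groups do not overlap. Tssk4 took 2.29% and 9.76% in the knockdown and 10.6% and 11.9% in WT. Tssk5 took 9.54% and 6.91% in the knockdown and 4.61% and 4.72% in WT. The shares of these 2 genes also lay apart between the groups, but their intervals overlap. For each share the exact permutation p over 4 libraries was 0.333, the smallest possible. Because Tssk3, Tssk4 and Tssk6 overlap other genes, these are shares of the counts assigned to each gene, and part of them may come from the overlapping gene. The totals behind them were 262 and 246 counts in the knockdown and 13746 and 7179 counts in WT.

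**Figure D2:**
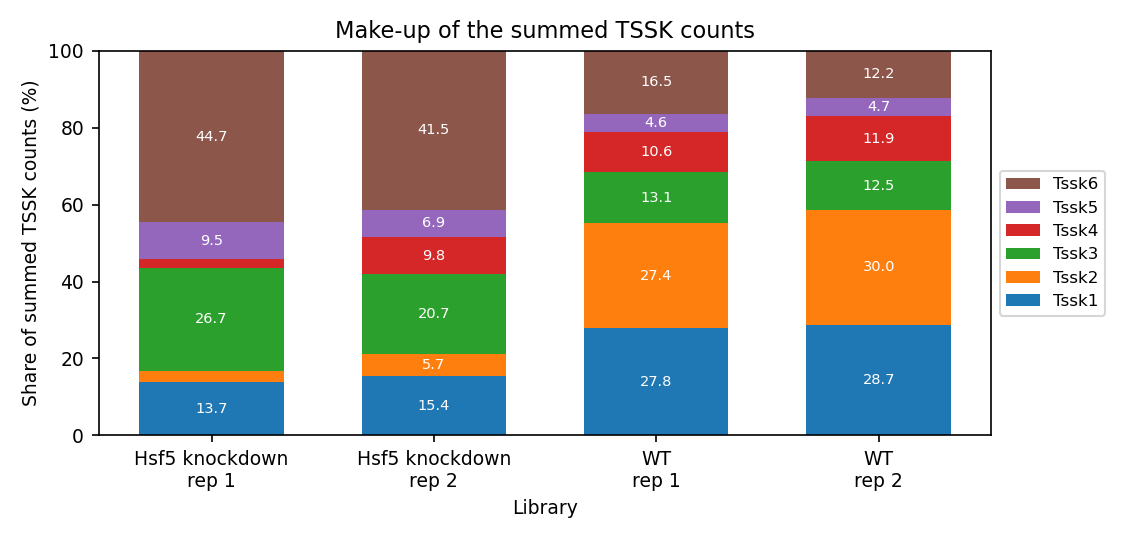
Share of the summed counts of the 6 TSSK genes held by each gene (percent) in each library, with the knockdown libraries at the left. Tssk6 is the largest part in both knockdown libraries, at 44.7% and 41.5%, and Tssk1 and Tssk2 are the largest parts in both WT libraries.

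To compare levels between genes, CPM was divided by transcript length in kilobases, using the longest GENCODE M21 transcript. In WT, Tssk2 was highest at 80.8 and 53.9 CPM per kilobase, above both values of each other member. Tssk6 followed at 50.6 and 22.8, Tssk3 at 42.03 and 24.4, Tssk1 at 30.8 and 19.4 and Tssk4 at 25.7 and 17.5 CPM per kilobase, and each of these overlapped the next in order. Tssk5 was lowest at 9.20 and 5.73 CPM per kilobase, below both values of each other member. The order depends on the length used for Tssk1, whose transcript has 3700 bases. Per coding length, 1095 bases, it stood at 104 and 65.5 CPM per kilobase in WT, overlapping Tssk2 at 104 and 69.7. In the knockdown the per-transcript order was led by Tssk6 (1.86 and 1.85 CPM per kilobase) and Tssk3 (1.16 and 0.966), and the other 4 genes overlapped between 0.0754 and 0.345 CPM per kilobase.

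The WT libraries themselves differed in TSSK level, and in 1 direction. All 6 genes were lower in WT replicate 2 than in WT replicate 1, with a median log2 ratio of -0.66 and a range from -1.14 for Tssk6 to -0.54 for Tssk4 (0.5 CPM added). Over all genes tested the median was -0.03, and 52.4% were lower in replicate 2. The 24 tested spermatid markers were also all lower in WT replicate 2, with a median of -0.86, while the pachytene markers had a median of -0.25 and the Sertoli cell markers one of 0.95. With WT replicate 1 left out, all 6 TSSK genes still fell at an adjusted p below 0.05, and the log2 fold change moved most for Tssk6, to -3.64 without WT replicate 1 against -4.74 without WT replicate 2. Tssk2 also moved with 1 knockdown library, to -8.01 without knockdown replicate 1 and -9.07 without knockdown replicate 2.

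**Figure D3:**
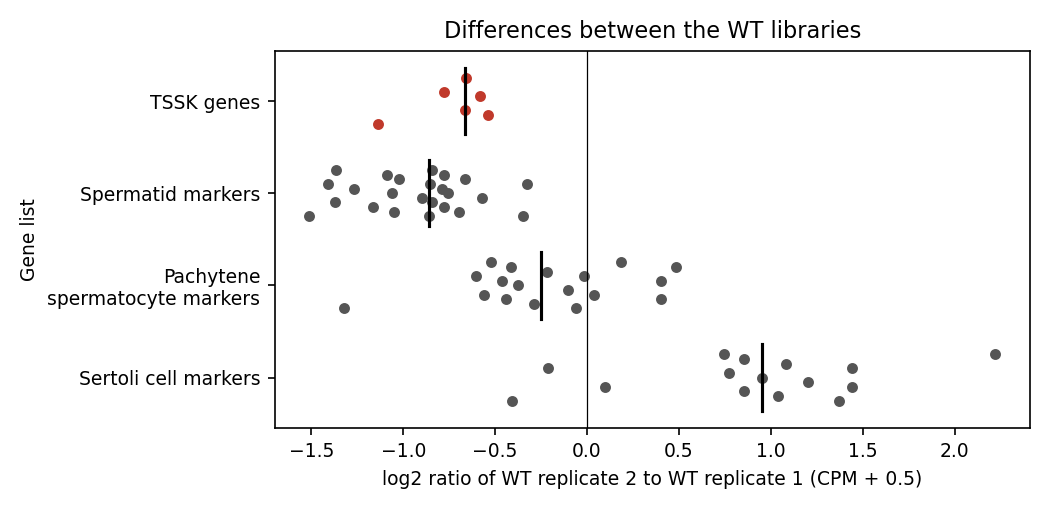
Log2 ratio of WT replicate 2 to WT replicate 1 for each gene of 4 lists, in CPM with 0.5 added, with black lines at the medians. The 6 TSSK genes (red, median -0.66) and the spermatid markers (median -0.86) all lie below 0, and the Sertoli cell markers have a median of 0.95.

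Markers of round and elongating spermatids moved in the same direction as the TSSK genes. All 24 tested markers fell, of 25 in the list, beside 33.5% lower and 27.4% higher among all genes tested. Their summed level was 72.0 to 90.3 CPM in the knockdown against 3150 to 5907 CPM in WT. Most of the knockdown sum came from Catsper2 (62.2 and 50.6 CPM) and Spaca1 (19.4 and 10.9 CPM). Spaca4 had no count in any library. Akap4, of the fibrous sheath of the tail, was at 0.0847 and 0.0485 CPM in the knockdown against 359 and 212 CPM in WT, and Odf1, of the outer dense fibres, at 0.127 and 0.17 CPM in the knockdown against 357 and 225 CPM in WT. The protamine gene Prm2, and Smcp, Cabs1 and Cylc2, had no count in either knockdown library. They entered the test by their WT counts alone and could only fall. With such genes at their bound, set by a floor of 3 counts over the group, the list's median log2 fold change was -10.79. It was -10.81 on the fitted scale. Other markers also passed the filter on low counts only through WT. Among them were Prm1 (2 and 1 counts in the knockdown), Tnp2 (2 and 3) and Akap4 (4 and 2). For such markers the filter favours a fall, so the count of markers that fell is partly set by it. The part of spermatid transcripts in the TSSK results was not tested.

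Of the 10 partners and substrates of the kinases 5 fell, 2 rose and 3 did not pass, beside 33.5% lower and 27.4% higher among all genes tested. The 7 of 10 called lie near the 60.9% called in either direction over all genes. Tsks, which encodes the shared substrate of TSSK1 and TSSK2, was at 3.96 and 2.91 CPM in the knockdown libraries against 159 and 98.4 CPM in the WT libraries. Its log2 fold change of -5.22 (SE 0.41; edgeR, adjusted p = 1.64e-05) lay within the range of the TSSK genes. Spag16, of the axonemal central apparatus and a binding partner of TSSK2, was at 15.3 and 12.02 CPM in the knockdown against 228 and 183 CPM in WT. Odf2, of the outer dense fibres and a substrate of TSSK4, was at 275 and 241 CPM in the knockdown against 2861 and 2341 CPM in WT. The log2 fold change was -3.91 for Spag16 (SE 0.33) and -3.33 for Odf2 (SE 0.37), and both passed.

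Tsacc, a co-chaperone that binds TSSK6, was at 19.7 and 10.2 CPM in the knockdown against 106 and 83.8 CPM in WT, a log2 fold change of -2.66 (SE 0.39; edgeR, adjusted p = 0.000471). Ppp1cc, the catalytic phosphatase subunit whose testis form binds TSKS, was at 334 and 299 CPM in the knockdown against 902 and 771 CPM in WT (log2 fold change -1.40, SE 0.31). The chaperones split. Hspa8, the constitutive HSP70, rose to 1491 and 1053 CPM in the knockdown, against 122 and 175 CPM in WT. Hsp90ab1, the constitutive HSP90, rose to 1372 and 1077 CPM in the knockdown, against 302 and 365 CPM in WT. The log2 fold changes were 3.10 for Hspa8 (SE 0.38) and 1.88 for Hsp90ab1 (SE 0.34). Hsp90aa1 (-0.29, SE 0.38), Pdpk1 (-0.39, SE 0.30) and Creb1 (0.05, SE 0.32) did not pass, and the sign of each of these 3 turned under at least 1 alternative scaling. With the synaptonemal complex and cohesin genes as the scale, Hsp90aa1 and Pdpk1 passed as lower (-1.09 and -1.14; edgeR, adjusted p = 0.00493 and 0.0202).

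**Figure D4:**
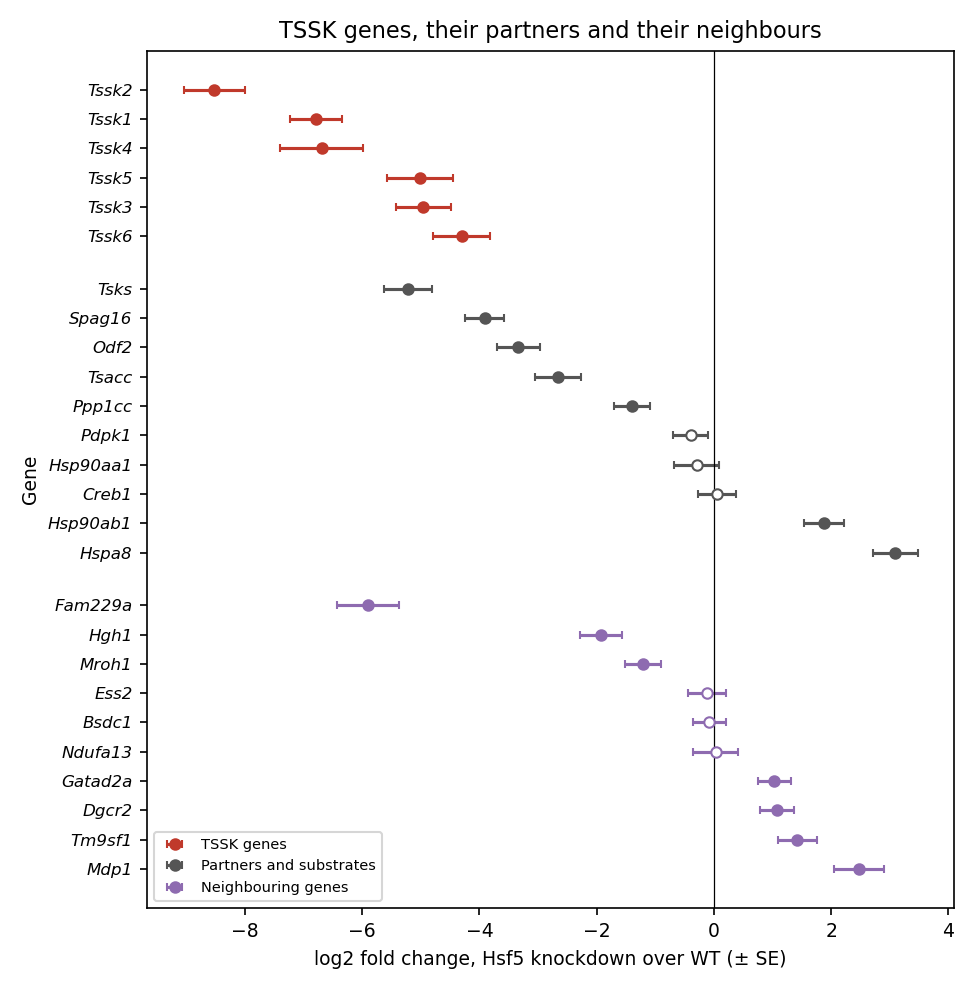
Log2 fold change of the knockdown over WT with its SE for the 6 TSSK genes (red), 10 partners and substrates (grey) and 10 neighbouring genes (purple). Filled points passed an adjusted p of 0.05 in edgeR. Tssk2 has the lowest value (-8.52) and Hspa8 the highest (3.10).

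Apart from the TSSK genes themselves, the kinases had 10 nearest protein-coding neighbours on the chromosome, of which 3 fell, 4 rose and 3 did not pass. These counts are near the shares of all genes tested, 33.5% lower and 27.4% higher. Fam229a, which overlaps Tssk3, had a log2 fold change of -5.90 (SE 0.52; edgeR, adjusted p = 3.11e-05). Hgh1 and Mroh1, on either side of Tssk5, fell, with log2 fold changes of -1.93 for Hgh1 (SE 0.35) and -1.20 for Mroh1 (SE 0.31). Flanking the Tssk1 and Tssk2 pair, Dgcr2 rose by 1.08 (SE 0.29) and Ess2 did not pass (-0.11, SE 0.33). Beside Tssk4, Mdp1 rose by 2.48 (SE 0.43), and beside Tssk6, Gatad2a rose by 1.03 (SE 0.29). Bsdc1, beside Tssk3, did not pass (-0.08, SE 0.28).

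Of 44 other kinases of testis and germ cells tested, in a list of 46, 25 fell, 7 rose and 12 did not pass, beside 33.5% lower and 27.4% higher among all genes tested. The median log2 fold change was -1.13, against -0.12 over all genes. Over the alternatives 21 to 28 fell and 5 to 8 rose. The 3 with the smallest p were Haspin, Hipk4 and Ulk4. Haspin, which phosphorylates histone H3 in dividing cells, was at 15.0 and 15.6 CPM in the knockdown against 758 and 747 CPM in WT (log2 fold change -5.62, SE 0.35). Hipk4, a kinase of spermatid head shaping in mice, was at 1.67 and 1.28 CPM in the knockdown against 58.8 and 47.6 CPM in WT (-5.16, SE 0.42). Ulk4 had a log2 fold change of -3.41 (SE 0.32). Among those that rose, Pim1, Prkd1 and Cdk16 had log2 fold changes of 2.23 (SE 0.33), 3.55 (SE 0.54) and 2.08 (SE 0.32). Mos, the oocyte and germ cell kinase, had no count in the knockdown and 28 in WT. It entered the test by its WT counts alone and could only fall. With a floor of 3 counts over the knockdown group it was at least 13.3-fold lower, a bound that leaves out the spread between libraries.

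The nearest kin of the TSSK proteins by kinase type, the AMPK-related and other calcium/calmodulin-dependent-type kinases, gave another split. Of 30 tested, 9 fell, 14 rose and 7 did not pass, with a median of 1.07, beside 33.5% lower and 27.4% higher among all genes tested. The split turned with the scaling: 12 fell and 8 rose on the scale of the synaptonemal complex and cohesin genes, and 6 fell and 16 rose with library totals only. Mark4, of the microtubule affinity-regulating kinases, rose to 112 and 138 CPM in the knockdown, against 9.93 and 16.2 CPM in WT. Camkk2, an upstream activator of some of these kinases, rose by 3.30 (SE 0.44) on the log2 scale. Phkg2, the testis and liver phosphorylase kinase subunit, was at 164 and 106 CPM in the knockdown against 1507 and 1221 CPM in WT (log2 fold change -3.33, SE 0.38). Hunk and Mark2 fell by 2.50 (SE 0.36) and 1.57 (SE 0.30).

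**Figure D5:**
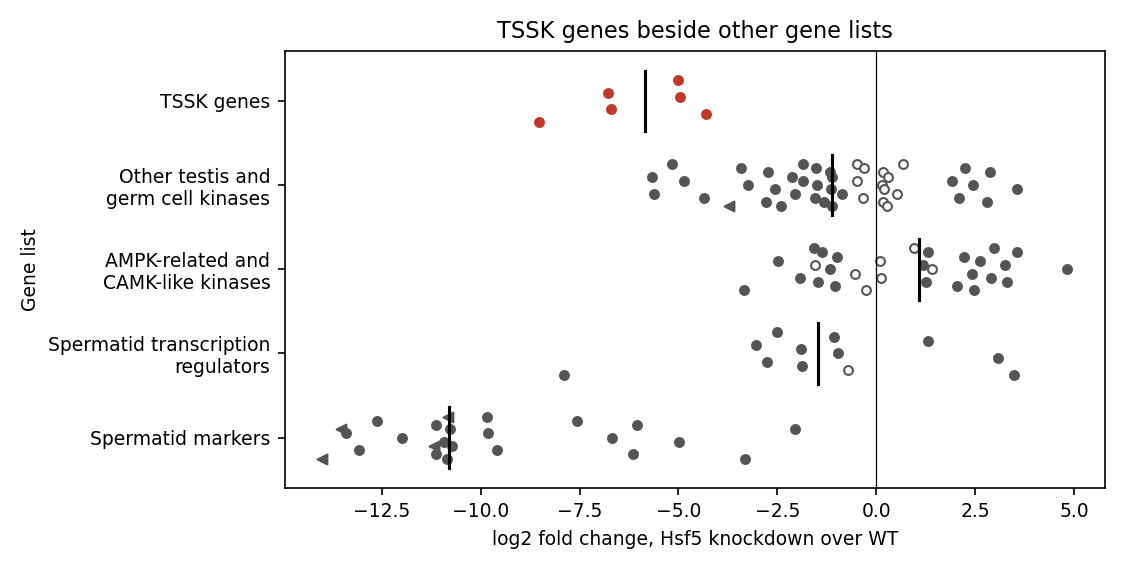
Log2 fold change of the knockdown over WT for each tested gene of 5 lists, with black lines at the list medians; filled points passed an adjusted p of 0.05 in edgeR. Triangles stand at the bound of genes with no knockdown count. The median of the TSSK genes (-5.85) lies between that of the other testis kinases (-1.13) and that of the spermatid markers (-10.79).

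Of 12 regulators of the spermatid programme 8 fell, 3 rose and Brdt, a reader of acetylated histones, did not pass (-0.72, SE 0.31), beside 33.5% lower and 27.4% higher among all genes tested. Over the alternatives 6 to 9 fell and 2 or 3 rose. Fhl5, a testis co-activator of CREM, was at 0.0847 and 0.242 CPM in the knockdown against 52.7 and 25.7 CPM in WT (log2 fold change -7.90, SE 0.68). Crem itself, named after its values were seen, was at 32.95 and 20.1 CPM in the knockdown against 206 and 155 CPM in WT, a log2 fold change of -2.77 (SE 0.35). Jund, Taf7l and Rxrb rose, with log2 fold changes of 3.48 (SE 0.34), 3.07 (SE 0.38) and 1.30 (SE 0.30).

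Promoters of 5 members were found in the RefSeq table, all but that of Tssk5, each from 250 bases before to 50 bases after the start. The paired heat shock unit GAANNTTC occurred in 3 of them, those of Tssk1, Tssk3 and Tssk4, and in 7.86% of all 32851 promoters on either strand. The reversed pair TTCNNGAA occurred in none of the 5 and in 8.52% of all. The cyclic AMP response element TGACGTCA, its part TGACGT, the RFX core GTTGCC and TATAAA occurred in none of the 5, and in 1.79%, 7.51%, 12.5% and 13.6% of all promoters. The MYB core AACTG was found in those of Tssk4 and Tssk6 and in 44.8% of all promoters. TGACGT lies within TGACGTCA, so these counts overlap. A match is a run of letters and no sign of binding. The 3 matches to GAANNTTC are printed with their surroundings, 30 bases each, because the unit and the knocked-down factor are both named for heat shock. Whether HSF5 binds there was not tested. Capitals mark the match.
Tssk1, chr16:17894181-17894210, plus strand: gagacagtgctGAAAGTTCcatgctagagt
Tssk3, chr4:129490726-129490755, minus strand: gtccagacggaGAATGTTCtagccctggag
Tssk4, chr14:55650149-55650178, plus strand: caagacaaaaaGAATGTTCttttctttccc
The match begins 11 bases before the RefSeq start in Tssk1 and 24 bases before it in Tssk4, and at base 27 after the start in Tssk3. No match was found in the promoters of Tssk2 and Tssk6.

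Other genes with nearly the same profile were sought for Tssk1 and Tssk2, the members with the highest mean CPM in WT. Likeness was the Euclidean distance over the 4 libraries in log2 CPM with 0.5 added, which follows the level in each group and is a description only. Nearest to Tssk1 were Cfap58 (distance 0.239), a sperm tail gene, Prss21 (0.466), a testis serine protease, and Aldoart2 (0.481), a germ cell aldolase. Nearest to Tssk2 were Cimip4 (0.250), Slc22a14 (0.326), a transporter of sperm, and Galntl6 (0.330). Cfap58 stood at 0.826 and 0.800 CPM in the knockdown against 116 and 81.6 CPM in WT, values not scaled to transcript length.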

How the data were processed

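The values are raw counts, deposited by the authors as a single gene table with 1 column per library. The submitters' processing notes name the build mm39 and the tools HISAT2 2.2.1, Trim Galore 0.6.10, DESeq2 1.46.0 and featureCounts 1.5.3. Annotation, strand setting and handling of multi-mapped reads: not given in the sources used here. Columns were matched to labels by name.

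The deposited counts went into edgeR 4.0.16 (R 4.3.3). Of 36809 genes with a count, 23594 passed filterByExpr by group. Libraries were scaled with TMM, and the knockdown was set against WT in the quasi-likelihood F test, with Benjamini-Hochberg adjustment over all genes tested and a threshold of 0.05. Each SE was approximated from the fold change and F, as log2 fold change over root F. The test was run on simulated counts in which 200 genes were changed, far fewer than the 14369 called in the data. That check therefore does not cover changes as wide as those seen here. Intervals cover counting error only. Alternatives used DESeq2 1.42.0 size factors or its Wald test, library totals, synaptonemal complex and cohesin genes as scale, other filters, a replicate block, a fold threshold and each library left out. Transcript lengths and sequences came from GENCODE M21 and promoters and neighbours from RefSeq, both on GRCm38, matched by symbol. Sequences were aligned with Biopython 1.88.

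The members and lists were chosen with earlier results of these data known. The genes named are the members, their listed partners, nearest neighbours, the 3 genes of nearest profile to each of the 2 members highest in WT, and per kinase and regulator list up to 3 genes with the smallest p and up to 3 that moved against their list. From lists of cell markers fewer were named.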

Additional observations from a re-analysis of the deposited data

How the results depend on the processing

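All 6 TSSK genes fell at an adjusted p below 0.05 under every alternative run: other scalings, filters, the DESeq2 Wald test, a fold threshold, the replicate block and each library left out. Over these, the log2 fold change ran from -9.26 to -8.01 for Tssk2, -7.53 to -6.34 for Tssk1, -8.12 to -5.88 for Tssk4, -5.79 to -4.58 for Tssk5, -5.73 to -4.53 for Tssk3 and -5.05 to -3.64 for Tssk6. The median of all genes was -0.12 with TMM, 0.31 with library totals and -0.89 on the scale of synaptonemal complex and cohesin genes, where 10282 genes fell and 3503 rose, against 7902 and 6467 with TMM. Hsf5 was -1.76 on the synaptonemal complex and cohesin scale (edgeR, adjusted p = 0.000824), -0.55 with library totals (edgeR, adjusted p = 0.115) and -1.13 to -0.79 with 1 library left out, and did not pass without either WT library; the cause was not tested. The sign turned for Creb1 with DESeq2 size factors (-0.0056), the DESeq2 test (-0.0057), a mean of at least 1 CPM (-0.0088), the scale of synaptonemal complex and cohesin genes (-0.71) and without knockdown replicate 2 (-0.091, in a range of -0.091 to 0.25 with 1 library left out), and with library totals for Pdpk1 (0.052) and Hsp90aa1 (0.13). Per coding length, 3 of 6 members kept their WT rank. The replicate numbers are not shown to pair the libraries, although the deviations of same-numbered libraries correlated at 0.32 over genes. With the number as a block, 15367 genes were called against 14369, and the 6 TSSK genes among them. Depth limits the knockdown values, which rest on 6 to 117 counts per gene and library.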
